A study of Mus musculus with 2 samples.

Results

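The transcripts described here were assembled from spleen RNA and carry the deposited class code o. By its definition, the code marks an exon that overlaps an exon of an annotated transcript without sharing a splice junction with it. That overlap was checked here only at the transcript ends. Of 16840 assembled transcripts, 453 had this code, and the 8 in the immunoglobulin kappa region of chromosome 6 were left out. The other 445 members lay in 383 assembled loci and made up 2.64% of the assembled transcripts. A mean of 100 FPKM or more over both libraries was reached by 23 members in 12 loci, and 422 members stood below it. FPKM stands for fragments per kilobase of transcript and 1000000 fragments, and a listed value of 0.0001 is the floor that stands for 0.

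The series holds 1 library of spleen cells from mice with collagen-induced arthritis (CIA), in which immunization with type II collagen leads to joint inflammation, and 1 library of spleen cells from healthy mice without treatment, called CIA and healthy below. Sample titles place both at day 40, while the treatment label of the CIA mice puts their sacrifice 42 days after the immunization. Strain, age and the number of mice in each library are not given in the labels used here. Total RNA was used in both, and ribosomal RNA was depleted. With 1 library per group no difference below has a replicate check, the sequencing depth is unknown, and every comparison is between 2 libraries rather than between the conditions. Members spanned exons of 1 of 10 listed B cell markers and of 2 of 12 erythroid markers, and none of the other 9 marker lists, so the labelled tissue could not be checked on these transcripts.

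Small nuclear RNAs are short, abundant, non-polyadenylated RNAs that work inside ribonucleoprotein particles. In the spliceosome, U1 pairs with the 5′ splice site of an intron, U2 pairs with its branch site, and U4 chaperones U6 until the catalytic core forms. U3 guides the processing of ribosomal RNA in the nucleolus, and 7SL is the RNA of the signal recognition particle, which brings ribosomes that make secreted proteins to the endoplasmic reticulum. The genes of U1, U2 and U3 occur as many near-identical copies, so a short read from a copy can often be placed on others.

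The label of the abundant set as small structural RNA loci was borne out by position for 22 of its 23 members, which had a terminal window of 100 bases on a U1, U2, U3, U4 or 7SL gene of GENCODE M21. The exception was MSTRG.9652.1, whose downstream end lay on the histone H4 gene Hist1h4n. A further 6 members below 100 FPKM also ended on U2 or U3 genes. No member had an end on a gene of the U5, U6, U7, U11 and U12, 7SK, RNase P and MRP or telomerase lists. The same held for the Y RNA, vault, Cajal body RNA, ribosomal RNA and tRNA lists, and for snoRNAs other than U3, listed by gene name. In all, 7 members below 100 FPKM ended on an annotated small RNA gene, so the remaining member ended on a gene outside these lists.

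The sequences of the gene copies at these ends are shown because they tell which copies can and cannot be told apart. They are GENCODE M21 transcripts on GRCm38, written 5′ to 3′ as DNA, and positions count from 1 at the 5′ end. In Rnu1a1, a U1 gene at chr11:87422867-87423030 on the plus strand, capitals mark the bases that pair with the 5′ splice site. In Gm24305, a U1 copy at chr12:54734555-54734718 on the minus strand, the capital marks its single difference, A26G.
Rnu1a1: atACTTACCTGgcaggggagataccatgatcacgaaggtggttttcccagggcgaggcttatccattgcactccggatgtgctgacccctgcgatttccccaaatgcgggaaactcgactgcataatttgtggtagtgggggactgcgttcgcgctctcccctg
Gm24305: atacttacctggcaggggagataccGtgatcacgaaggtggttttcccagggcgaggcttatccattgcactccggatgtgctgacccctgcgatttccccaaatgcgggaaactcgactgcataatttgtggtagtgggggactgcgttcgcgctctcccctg
The other U1 copies at member ends (Gm22068, Gm22634, Gm23804, Gm25679 and Gm22317) and Gm26444, between them, were identical to Rnu1a1 over all 164 bases.

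Of the U2 genes, Rnu2-10 lies at chr11:101658238-101658428 on the plus strand, and its capitals mark the bases that pair with the branch site. The 3 U2 copies of the chromosome 1 array follow on the plus strand, with capitals at the bases that differ from Rnu2-10. Gm23472 (chr1:72236946-72237136) carries G109C, Gm24497 (chr1:72244213-72244403) carries G109C and C186A, and Gm25939 (chr1:72255008-72255198) carries T69C, C78T and G109C.
Rnu2-10: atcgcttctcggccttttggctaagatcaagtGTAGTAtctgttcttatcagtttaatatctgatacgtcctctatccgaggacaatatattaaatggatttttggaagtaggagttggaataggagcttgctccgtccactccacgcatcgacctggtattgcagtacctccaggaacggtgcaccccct
Gm23472: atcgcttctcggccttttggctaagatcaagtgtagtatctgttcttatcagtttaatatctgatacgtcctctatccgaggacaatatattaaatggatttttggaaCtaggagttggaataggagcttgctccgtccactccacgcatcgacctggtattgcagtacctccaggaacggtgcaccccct
Gm24497: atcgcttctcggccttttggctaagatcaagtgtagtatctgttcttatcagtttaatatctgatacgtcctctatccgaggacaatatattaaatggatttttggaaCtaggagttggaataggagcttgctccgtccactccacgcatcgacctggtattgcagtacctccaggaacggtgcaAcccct
Gm25939: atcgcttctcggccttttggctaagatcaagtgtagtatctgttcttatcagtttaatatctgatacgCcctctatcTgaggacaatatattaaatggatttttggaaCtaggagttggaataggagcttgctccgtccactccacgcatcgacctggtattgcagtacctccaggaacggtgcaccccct
On chromosome 11, Gm23849, Gm24950 and Gm23971 were identical to Rnu2-10 over 191 bases, while Gm26316 and Gm23444 each had 1 difference. All 3 copies of the chromosome 1 array thus share G109C, and only reads over a differing base could separate them from the identical chromosome 11 copies. Reads were not examined, and how they were placed among the copies is unknown.

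The U4 locus spans Gm24265 (chr5:115489459-115489599) and ends on Gm24407 (chr5:115490254-115490394), both on the plus strand. Neither is named as U4 in the annotation, and the family is given here from the sequence. Capitals mark the Sm protein binding site in Gm24265 and the differences G88A and C99A in Gm24407.
Gm24265: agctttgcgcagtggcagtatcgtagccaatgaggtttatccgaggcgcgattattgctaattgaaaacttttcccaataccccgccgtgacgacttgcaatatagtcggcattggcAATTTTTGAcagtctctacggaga
Gm24407: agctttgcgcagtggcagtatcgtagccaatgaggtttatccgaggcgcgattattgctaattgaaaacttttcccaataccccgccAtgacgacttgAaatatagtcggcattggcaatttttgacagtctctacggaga
For 7SL the gene is Rn7s2, at chr12:69361182-69361481 on the minus strand, and the member that overlaps it ends 29 bases inside the gene.
At 95% identity or more, GENCODE M21 holds 24 copies of U1, 13 of U2 and 2 of 7SL, and both copies of 7SL are identical.

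Summed over the 23 abundant members, FPKM was 13856 in the CIA library and 41551 in the healthy library. That was 19.3% of the FPKM of all assembled transcripts in the CIA library and 46.7% in healthy. Of these members 7 were higher by 2-fold or more in the CIA library, 11 lower by 2-fold or more and 5 within 2-fold, with a median log2 ratio of -0.97. Over all 16773 assembled transcripts past the filter of 0.5 FPKM in either library, 17.2% were higher by 2-fold or more and 11.1% lower by 2-fold or more, and the median was 0.26. Ratios were computed with 0.1 FPKM added to both values. Of the 23, 14 differed at least 10-fold (60.9%), against 3.67% of all assembled transcripts past the filter, and 8 were listed at 0 in 1 library (34.8% against 2.55%), 5 of them in CIA and 3 in healthy. The 8 entered this set through the library in which they are high. So did members that were low but above 0 in 1 library, such as MSTRG.864.5, MSTRG.6453.1, MSTRG.6995.1 and MSTRG.8166.2. The split by mean FPKM therefore shapes the shares at 10-fold and at 0.

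**Figure D1:**
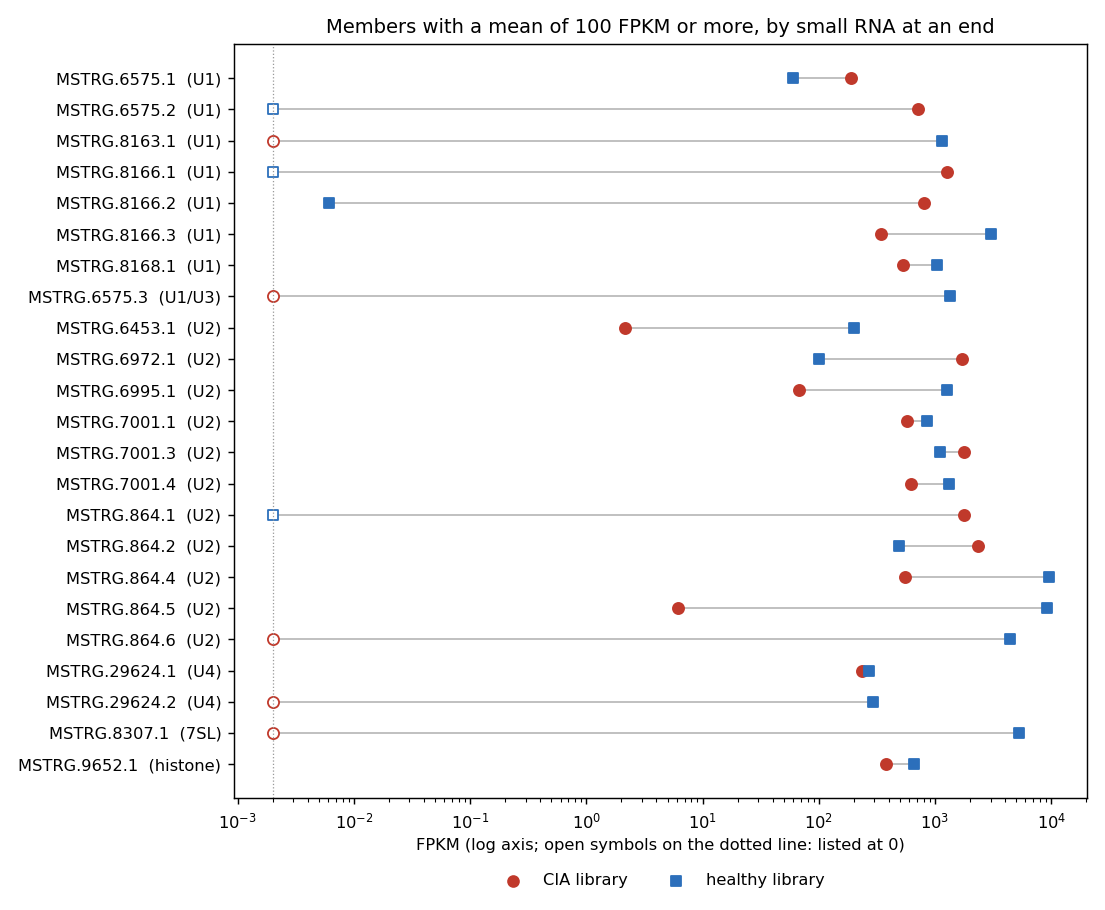
FPKM of the 23 members with a mean of 100 FPKM or more in the CIA library (circles) and the healthy library (squares), on a log axis, with the small RNA at an end in brackets. Open symbols stand for values listed at 0, which 5 members have in the CIA library and 3 in the healthy library, and lines join the values of a member.

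The largest signal came from U2 copies at chr1:72236946-72255198, with the deposited gene name D230017M19Rik, a lincRNA. All 7 members of this locus began 0 or 3 bases inside Gm23472 and ended on the last base of Gm25939. Their lengths varied, but MSTRG.864.4 and MSTRG.864.5 shared start, end, number of exons and length, so these values do not tell them apart. MSTRG.864.4, with 3 exons and 446 bases, was at 549.3 FPKM in CIA and 9493 in the healthy library. For MSTRG.864.5, also of 446 bases, the values were 6.16 and 9210. The 2-exon MSTRG.864.6 was listed at 0 in CIA but at 4399 in healthy. These 3 members began at the same base and were all low in the CIA library.

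The members of that locus that began on the first base of Gm23472 went the other way. MSTRG.864.2, of 438 bases, was at 2341 FPKM in CIA against 488.3 in the healthy library, and MSTRG.864.1, of 428 bases, at 1774 against a listed 0. The other two members of the locus were minor, MSTRG.864.7 listed at 0 in CIA with 17.4 FPKM in healthy, and MSTRG.864.8 at 2.45 and 4.25. Summed over the locus, FPKM was 4673 in the CIA library and 23612 in healthy, a log2 ratio of -2.34 and 5.05-fold lower. Without MSTRG.864.5, the member with the largest difference, the log2 ratio was -1.63. So the locus sum was lower in the CIA library although 2 of its 7 members were higher by 2-fold or more there. In the authors' deposited table the p-values were 1.73e-27 for MSTRG.864.5, 1.22e-08 for MSTRG.864.4 and 0.00176 for MSTRG.864.2, and 1 for MSTRG.864.1 and MSTRG.864.6.

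A second array of U2 genes, between 101278756 and 101658430 on chromosome 11, held 8 members in 3 loci. The members of MSTRG.7001, which join Gm23849 and Rnu2-10, varied least: MSTRG.7001.3 was at 1771 FPKM in CIA and 1100 in healthy. The corresponding values were 617.9 and 1324 for MSTRG.7001.4, and 572.8 and 855.6 for MSTRG.7001.1. Together they summed to 2961 and 3279 FPKM, a log2 ratio of -0.15. The neighbouring loci, whose members end on Gm23971, differed in opposite directions.

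MSTRG.6972.1, a 2-exon transcript labelled on the plus strand while Gm23971 lies on the minus strand, was at 1707 FPKM in CIA and 101.3 in healthy, 16.8-fold higher. On the strand of Gm23971, MSTRG.6995.1 was at 67.3 FPKM in CIA and 1275 in healthy. Its 3 locus mates, all with lower means, had the opposite pattern. MSTRG.6995.2 was at 153.5 FPKM in CIA and 0.00657 in healthy, MSTRG.6995.3 was at 58.9 and 0.101, and MSTRG.6995.4 was at 43.6 and 0.152. That locus summed to 323.2 and 1275 FPKM, a log2 ratio of -1.98. Over the whole chromosome 11 array the sums were 4992 and 4656 FPKM, a log2 ratio of 0.10, and without MSTRG.6972.1 the ratio was -0.47. The sums of the 2 U2 arrays were therefore nearly equal in the CIA library. In the healthy library the chromosome 1 array summed to 23612 FPKM beside 4656 for the chromosome 11 array. How reads were shared between the arrays is unknown.

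The last U2 member, MSTRG.6453.1, overlaps Gm23444 from the opposite strand in the region of Slfn14, a member of the Schlafen family, and was at 2.14 FPKM in CIA against 200.1 in the healthy library. Of the 16 members with a U2 end, 6 were higher by 2-fold or more in the CIA library and 7 lower by that rule. The shares over all assembled transcripts were 17.2% and 11.1%. FPKM over these 16 members summed to 9667 in CIA and 28468 in healthy. The U2 sum was 2.94-fold lower, a log2 ratio of -1.56, and with each member weighted by its length the log2 ratio was -1.65.

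**Figure D2:**
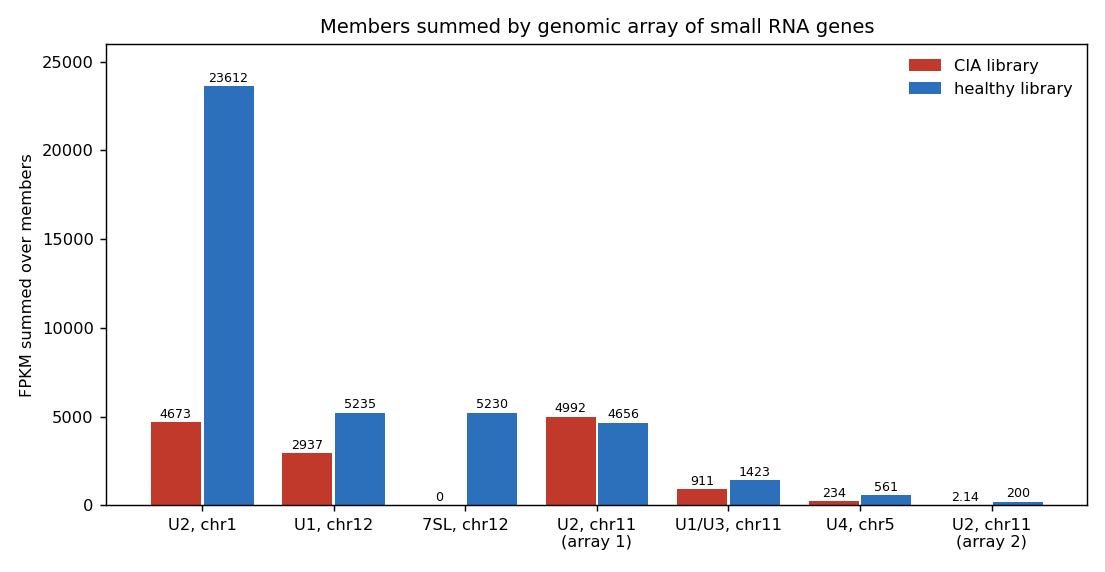
FPKM summed over the members of each array of small RNA genes, in the CIA library (left bar of each pair) and the healthy library (right bar), with 1 library per bar and the sum printed above it. The U2 array of chromosome 1 reached 23612 FPKM in the healthy library and 4673 in the CIA library, while the larger U2 array of chromosome 11 (array 1 on the axis) reached 4656 and 4992.

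U1 members came from 2 arrays. On chromosome 12, between 54710308 and 54738622, 5 members in 3 loci joined U1 copies to one another or ended on one. MSTRG.8166.3 was at 340.7 FPKM in CIA and 3041 in healthy. From the same locus, MSTRG.8166.1 was at 1262 FPKM in CIA and MSTRG.8166.2 at 800.8, where the healthy library listed 0 and 0.00614. The locus therefore summed to 2403 and 3041 FPKM, a log2 ratio of -0.34, although MSTRG.8166.3 was 8.92-fold lower and the other members were listed at or near 0 in healthy.

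MSTRG.8163.1, which joins Gm22634 to Gm23804, was listed at 0 in CIA but at 1151 FPKM in healthy. MSTRG.8168.1, labelled on the strand opposite to Gm25679 and Gm24305, was at 533.5 and 1043 FPKM, within 2-fold. The chromosome 12 array summed to 2937 FPKM in CIA and 5235 in healthy, a log2 ratio of -0.83, and to 0.24 on that scale without MSTRG.8166.3. The direction of this sum thus rested on 1 member.

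On chromosome 11, near Tex14, 2 members ended 3 bases past Gm22068. MSTRG.6575.2 was at 713.2 FPKM in CIA against a listed 0, and MSTRG.6575.1 at 188.9 against 59.4. Another transcript of that locus, MSTRG.6575.3, ran from the first base of Rnu1a1 to just past the U3 gene Rnu3b2, and was listed at 0 in CIA but at 1355 FPKM in healthy. MSTRG.6577.3, which joins the U3 genes Rnu3b1 and Rnu3b3, was at 8.69 and 8.36 FPKM. Of the 8 members with a U1 end, 4 were higher by 2-fold or more in the CIA library and 3 lower by that rule. The shares over all assembled transcripts were 17.2% and 11.1%. The U1 sums of 3839 and 6649 FPKM gave a log2 ratio of -0.79, which is within 2-fold, and of -0.04 without MSTRG.8166.3.

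The U4 locus, between 115073068 and 115490394 on chromosome 5, held 2 members with the deposited gene name Msi1, whose gaps sum to 416605 and 416721 bases. MSTRG.29624.1, with 3 exons, was at 234.2 FPKM in CIA and 268.0 in healthy. The 2-exon MSTRG.29624.2 was listed at 0 in CIA but at 292.6 FPKM in healthy. Their sums of 234.2 and 560.6 FPKM gave a log2 ratio of -1.26. Both forms were lower in CIA, and the 2-exon form made up most of the difference.

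The 7SL member, MSTRG.8307.1, is labelled on the plus strand and overlaps Rn7s2, which lies on the minus strand. It was listed at 0 in CIA but at 5230 FPKM in the healthy library. Other assembled transcripts of the same locus, of the code for an exon on the opposite strand, end on the same base and went both ways. MSTRG.8307.2 was at 310.4 FPKM in CIA and 9.38 in healthy, and MSTRG.8307.3 at 68.5 and 9.59, while MSTRG.8307.4 was listed at 0 and 41.8. Over every class code the locus summed to 378.9 and 5291 FPKM, a log2 ratio of -3.80. At Rn7s6, a 7SL gene in the region of chromosome 6 that was left out, MSTRG.31436.2 was at 1170 FPKM in CIA and 0.0429 in healthy, and MSTRG.31436.1 was listed at 0 and 243.7.

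MSTRG.9652.1, the abundant member without a small RNA gene, spans a histone cluster of chromosome 13 and was at 374.6 FPKM in CIA and 664.8 in healthy, a log2 ratio of -0.83. Near the split, the members just above 100 FPKM were MSTRG.6453.1, MSTRG.6575.1 and MSTRG.29624.2, and those just below were MSTRG.16641.1, MSTRG.5330.1 and MSTRG.6995.2. The mean of MSTRG.16641.1, the highest below it, was 90.0 FPKM. Of these 6 members, 4 were on small RNA genes. MSTRG.16641.1 ends on major histocompatibility genes and MSTRG.5330.1 on an alpha globin gene, both from the opposite strand.

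Counted by locus, 1 of the 12 abundant loci was higher by 2-fold or more in the CIA library, 6 were lower by 2-fold or more, and the median log2 ratio was -1.11. Over all 16425 assembled loci past the filter, 16.9% were higher and 10.9% lower by that rule. In 6 of the 12 loci there were at least 2 members, and in 4 of these some members were higher by 2-fold or more and others lower by 2-fold or more. Of those 4, MSTRG.8166 and MSTRG.6575 were within 2-fold as sums, and MSTRG.864 and MSTRG.6995 were lower.

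Assembled structures and gene boundaries met closely at these loci. Of the 23 abundant members, 14 had both ends on annotated exons, and in 12 of them the genes at the ends were similar, defined as an alignment of at least 100 bases at 80% identity or more. The members were short, with a median of 426 bases and a range of 231 to 1544. Some were shorter than the summed length of the genes they join: MSTRG.8163.1 has 272 bases, against 164 for each of its 2 U1 genes, and MSTRG.864.6 has 320 bases against 191 for each U2 gene. A transcript sequence could not be read at the inner ends of the exons, whose positions the tables do not give.

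The 422 members under 100 FPKM were a different population. Their mean FPKM had a median of 3.07, their length a median of 1463 bases and a maximum of 19021. Of the 421 past the filter, 58 were higher by 2-fold or more in the CIA library (13.8%), 37 lower by 2-fold or more (8.79%) and 326 within 2-fold, with a median log2 ratio of 0.28. Both shares were below the 17.2% and 11.1% of all assembled transcripts, and the median was close to the 0.26 of those and to the 0.30 of annotated transcripts. Centred on the assembled median, the split was 43 higher and 58 lower. By locus, 41 of 370 were higher and 27 lower.

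The shares past 2-fold were also set beside transcripts of like abundance. Among members with a mean under 2 FPKM, 23.5% were higher and 15.3% lower, and in the rest of the assembled transcripts of that abundance 26.1% and 20.2%. From 2 to 5 FPKM the shares were 10.5% and 7.14% for members and 8.83% and 2.74% for the rest, and from 5 to 20 FPKM 10.1% and 4.04% against 9.13% and 1.49%. From 20 to 100 FPKM, 3 of 14 members were higher and 3 lower, 21.4% each, against 9.26% and 3.70% of the other 54 transcripts. All 3 higher members in this range belong to the U2 locus MSTRG.6995, which as a sum was lower in the CIA library. The higher share there thus rested on 1 locus, while the 3 lower members lay in different loci. From 2 FPKM up, members were both more often 2-fold higher and more often 2-fold lower than the other assembled transcripts in these 2 libraries. These differences were not tested. All 445 members are spliced, while 1977 of the 16387 assembled transcripts of the other codes are.

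**Figure D3:**
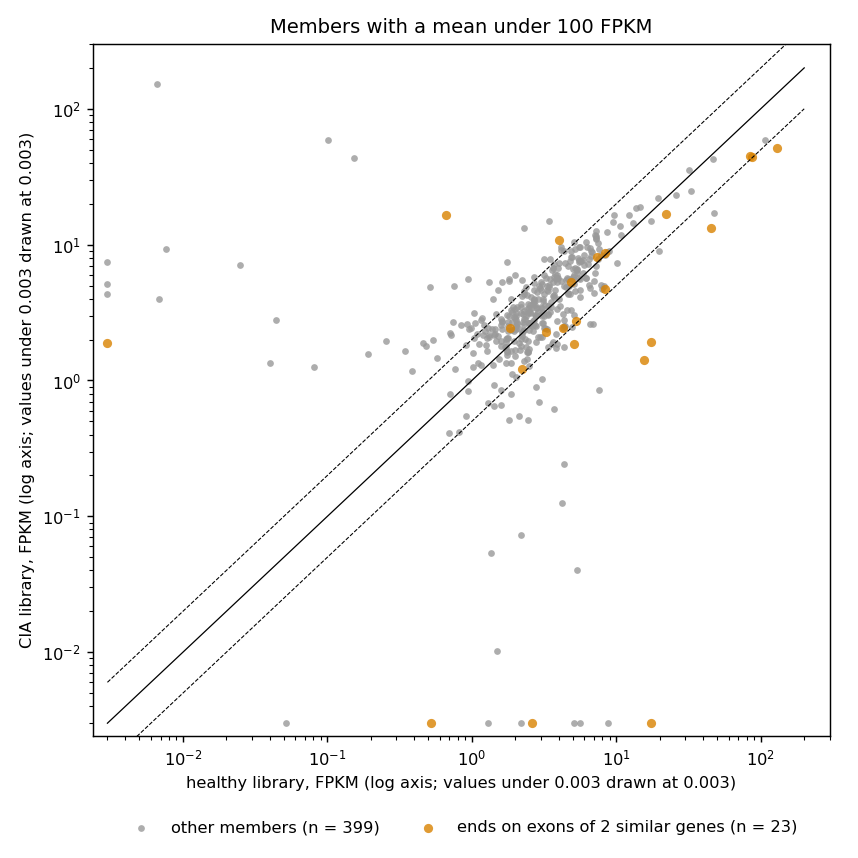
FPKM of the 422 members with a mean under 100 FPKM in the healthy library (horizontal) and the CIA library (vertical), both on log axes, with dashed lines at 2-fold. Members that end on exons of 2 similar genes are in orange, and 16 of these 23 lie below the line of equal values.

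Members that join 2 similar genes were found at small RNA genes and elsewhere. In all, 35 of 445 members (7.87%) ended on exons of 2 similar genes, against 34 of 1977 spliced assembled transcripts of the other codes (1.72%), where the code for an exon on the opposite strand had 7.97%. Among the 23 such members under 100 FPKM, 3 were higher by 2-fold or more in the CIA library and 8 lower by that rule. The shares over all assembled transcripts were 17.2% and 11.1%. The median log2 ratio of the 23 was -0.81, and 16 were below 0. Without the 3 that end on U2 or U3 genes, 3 of 20 were higher and 7 lower, with a median of -0.87. Of these 20, 15 were labelled on the strand opposite to the genes at both ends, and 3 on the same strand. Families other than small RNAs included histones, major histocompatibility class I genes, serpins, Ly6 genes, immunoglobulin V genes, TRIM genes and interferon-inducible genes.

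Replication-dependent histones package newly made DNA, and their mRNAs lack a poly(A) tail. Their genes stood at the ends of 5 members, all lower in the CIA library and 2 of them at least 2-fold. Among all assembled transcripts past the filter, 11.1% were lower by 2-fold or more. Of the 421 members under 100 FPKM past the filter, 144 were lower at any size. MSTRG.9682.1 joins the H3 genes Hist1h3e and Hist1h3a from the opposite strand, and was at 44.5 FPKM in CIA against 86.6 in healthy. MSTRG.9678.1, on the strand of the H4 genes Hist1h4f and Hist1h4c, was at 44.8 against 84.7. The other members at these genes were MSTRG.9671.1, at 9.01 and 19.9 FPKM, MSTRG.24522.2, at 1.85 and 5.06, and MSTRG.9652.1 above. All 5 were lower in the CIA library by 0.83 or more on the log2 scale.

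Major histocompatibility class I molecules present peptides to CD8 T cells. MSTRG.16641.1 joins H2-D1 and H2-Q7 from the opposite strand, at chr17:35265744-35442574, and was at 51.1 FPKM in CIA and 128.9 in healthy. MSTRG.16641.2, of the same strand, ends and length but 3 exons, was at 1.41 and 15.7. MSTRG.16499.1, between H2-K2 and H2-K1, was at 16.9 and 22.0 FPKM. In the neighbouring locus MSTRG.16719, MSTRG.16719.2, between H2-T-ps and Gm7030 from the opposite strand, was at 42.9 and 46.9 FPKM. MSTRG.16719.3, between H2-T-ps and Gm8909, was at 10.9 and 3.99, and MSTRG.16719.1, between Gm11127 and Gm8909, at 4.72 and 8.38. Of the 5 members with an H2 gene at an end, 4 were lower in the CIA library, 2 of them at least 2-fold. The other was higher by 2-fold or more. By that rule, 17.2% of all assembled transcripts were higher and 11.1% lower.

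Serpina3f, Serpina3g and Serpina3h belong to the serpin family of protease inhibitors. MSTRG.9010.1, between Serpina3f and Serpina3g, was at 13.3 FPKM in CIA and 44.9 in healthy, and MSTRG.9010.2, between Serpina3f and Serpina3h, at 1.91 and 17.4. MSTRG.13556.1 joins Ly6a, which encodes the surface antigen Sca-1, to Ly6c1, and was listed at 0 in CIA but at 2.62 FPKM in healthy. These members are labelled on the strand opposite to the genes at their ends, and all were lower in the CIA library.

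Immunoglobulin V genes encode the variable part of antibody chains and stood at the ends of 5 members, of which 2 were higher by 2-fold or more in CIA, with none lower, beside 17.2% higher and 11.1% lower over all assembled transcripts. MSTRG.9318.4 runs from Ighv1-81 to Ighv1-82 on their strand and was at 16.4 FPKM in CIA and 0.659 in healthy, a log2 ratio of 4.44. MSTRG.9334.1, between Ighv8-8 and Ighv8-9 from the opposite strand, was at 1.88 FPKM against a listed 0. MSTRG.9326.1, between Ighv1-55 and Ighv1-69, was at 2.42 and 1.83 FPKM. The members at light chain genes, MSTRG.14646.1 and MSTRG.14647.1, were at 5.98 and 3.87 FPKM and at 2.40 and 1.94 FPKM.

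Members at the other pairs of similar genes named here differed by less than 2-fold. MSTRG.34624.1, between the TRIM family genes Trim12a and Trim12c, was at 5.29 FPKM in CIA and 4.85 in healthy. MSTRG.2447.1, between Ifi206 and Ifi213 of the interferon-inducible p200 family, was at 2.28 and 3.28 FPKM. MSTRG.34691.2 and MSTRG.34691.1, which end on Gvin1, an interferon-inducible GTPase gene, were at 2.73 and 5.28 FPKM and at 1.22 and 2.22 FPKM. None of these differed by 2-fold in either direction, and MSTRG.34691.2 came closest.

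The largest ratios in the lower-abundance set, after the U2 transcripts at Gm23971, were mostly of transcripts near the floor in the other library. MSTRG.19022.2, with an end at Malat1, an abundant nuclear RNA, was at 9.25 FPKM in CIA and 0.00759 in healthy, and MSTRG.19022.1 from the same locus at 7.40 against a listed 0. MSTRG.3167.1, with the deposited gene name Gm26740, was at 7.13 and 0.0249 FPKM, and MSTRG.1082.1 at Gigyf2, a translational repressor gene, at 3.98 and 0.00679. MSTRG.23709.6 (Abhd18) was at 2.77 and 0.0444 FPKM, MSTRG.25054.2 (Gm43288) at 1.36 and 0.0402, and MSTRG.34709.1 (Gm4759) at 4.92 and 0.517. MSTRG.12826.7, at Mir17hg, the host gene of the miR-17-92 microRNA cluster, was at 4.35 FPKM against a listed 0, and MSTRG.16736.1 (Esp1) at 5.10 against 0. All of these were high in the CIA library.

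Low in the CIA library were MSTRG.34857.1 at Sox6, a transcription factor gene, at 0.0402 against 5.33 FPKM, and MSTRG.5406.1 (4930597A21Rik), at 0.126 against 4.18. MSTRG.34707.1 (Gvin1) was at 0.0103 FPKM against 1.502, MSTRG.10509.2 at the zinc finger gene Zfp738 at 0.0725 and 2.18, and MSTRG.6865.1 at Cdk12, a transcription elongation kinase gene, at 0.243 and 4.36. MSTRG.11437.1 at the ubiquitin-conjugating enzyme gene Ube2e2 was at 0.0541 and 1.36 FPKM, MSTRG.27828.1 (AW011738) at 0.844 and 7.63, and MSTRG.9613.2 (Gm32036) at 0.618 and 3.71. Listed at 0 in the CIA library were MSTRG.38237.2 (2810013P06Rik), at 8.74 FPKM in the healthy library, MSTRG.19169.1, at 5.61, and MSTRG.8694.11 at Numb, a Notch inhibitor gene, at 5.10. In this set 9 members were listed at 0 in the CIA library and 4 in healthy.

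Among the most abundant members under 100 FPKM, MSTRG.5330.1 ends at the alpha globin gene Hba-a1 from the opposite strand. It was at 59.1 FPKM in CIA and 107.4 in healthy. MSTRG.32593.1, near Clec2g, a C-type lectin gene, was at 35.6 and 32.1 FPKM, and MSTRG.11862.2 (Gm1821) at 17.2 and 47.6. MSTRG.5431.1, which spans exons of the B cell factor gene Ebf1, was at 5.31 and 3.65 FPKM. Of these 4, MSTRG.11862.2 differed by 2-fold or more.

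Neighbouring members formed groups. Joining members up to 100 kb apart gave 247 groups, of which 18 held at least 5 members and 156 of the 445 members (35.1%). The group of the heavy chain diversity segments, at Ighd5-8 and Adam6b on chromosome 12, held 6 members, and summed to 30.9 FPKM in the CIA library against 11.2. By 2-fold or more, 5 of its members were higher there, where 17.2% of all assembled transcripts were, and the group was chosen after its values were seen. The group at the light chain lambda locus on chromosome 16, led by Gm42870, held 5 members and summed to 34.4 and 17.5 FPKM. At Raet1d on chromosome 10, a gene of ligands for the natural killer receptor NKG2D, 6 members summed to 19.4 and 7.34 FPKM, a log2 ratio of 1.39, or 0.74 without MSTRG.3167.1. The 3 groups were higher in the CIA library as sums, but so were most of the 18 groups. Lower as sums were only the groups at Gvin1, at the U2 array of chromosome 1 and at the U1 array of chromosome 12. The group at Gm26804 on chromosome 8 was close to the lambda group, at 39.8 FPKM in CIA and 21.5 in healthy.

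Several groups in other gene families were closer to even. The largest held 26 members on chromosome 1 around Sp110, which encodes a nuclear body protein, and summed to 97.6 FPKM in CIA and 72.6 in healthy, with 2 members higher by 2-fold or more and none lower. The group at Gvin1 on chromosome 7 held 14 members and summed to 70.4 and 86.6 FPKM, with 1 member higher and 2 lower. At the p200 family genes Mndal and Ifi203, which encode DNA-binding immune proteins, 7 members summed to 38.1 and 26.9 FPKM. At Clec2g, 6 members summed to 101.6 and 79.7 FPKM, and none differed by 2-fold. By the 2-fold rule, 17.2% of all assembled transcripts were higher and 11.1% lower.

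Most members had a wide gap, taken as the genomic span less the transcript length. In the 386 members with 2 exons, where the gap is the implied intron, the median was 49582 bases, 75.9% exceeded 10 kb, 25.6% exceeded 100 kb and the largest was 492141 bases. At the other end 22 of them (5.70%) were under 100 bases, against 4.64% of annotated introns. The median gap of 2-exon transcripts was 2443 bases for those that share a splice junction with an annotated transcript, 7981 for those on the opposite strand of an exon, 2030 between genes and 197 inside introns. Annotated introns of GENCODE M21 had a median of 1484 bases, and 0.764% of 284419 exceeded 100 kb. Both ends lay on annotated exons in 53 members, 1 end in 78 and neither in 314 (70.6%). This check used 100 bases at each end and exons of either strand. The exon overlap that the class code stands for was therefore not shown for most members.

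**Figure D4:**
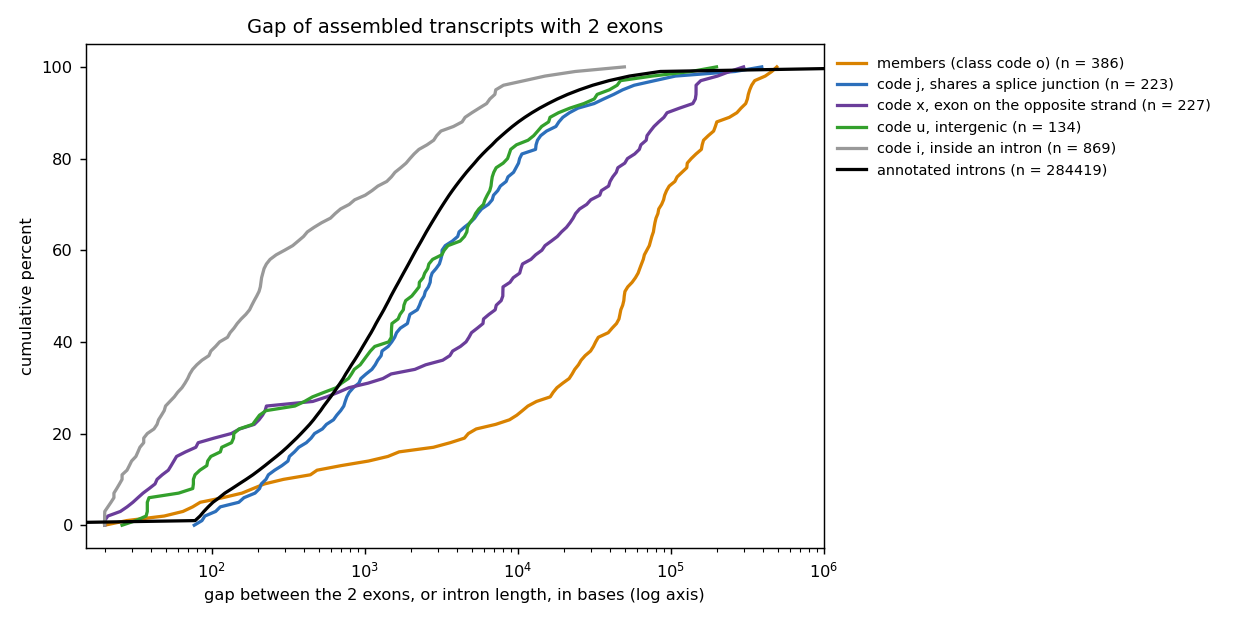
Cumulative percent of assembled transcripts with 2 exons (and of annotated introns) against the gap in bases, on a log axis, by class code. The middle and upper part of the members' curve lies to the right of the others, with a median of 49582 bases against 1484 for annotated introns, while 5.70% of members have gaps under 100 bases.

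Gaps of the same length recurred within some groups. Of 293 2-exon members with a gap over 10 kb, 36 (12.3%) had another member within 1 Mb that began at least 1000 bases away and had a gap within 100 bases of theirs. Of the 293, 188 had another such member within 1 Mb. Among transcripts on the opposite strand of an exon it was 13 of 103 (12.6%), of which 52 had one within 1 Mb. The other codes had too few neighbours to compare. In the Raet1d group 5 of 6 members had gaps of 190157 to 190241 bases, and in the group at Gm26804 on chromosome 8 it was 4 of 5, from 127249 to 127290 bases. The group around Sp110 held 14 such members. By gap length, the median log2 ratio of the 2-exon members under 100 FPKM was 0.01 below 100 bases, 0.23 from 100 to 10000 bases, 0.32 up to 100 kb and 0.31 beyond.

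The p-values in the authors' deposited table were below 0.05 for 17 members higher in the CIA library and 17 lower. Over all assembled transcripts that table has such a value for 1.32% higher and 0.534% lower. Of 113 members 2-fold or more apart by FPKM, 61 had a p-value of 1 in the authors' deposited table, and of 40 at least 10-fold apart, 35 had it. All 21 members listed at 0 in 1 library had a p-value of 1 in the authors' deposited table. The same table marked 56 members as significant, with p-values up to 0.204.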

How the data were processed

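RNA of mouse spleen cells was measured in 1 CIA library and 1 healthy library, after TRIzol extraction and ribosomal RNA depletion per the labels' protocols. StringTie is named in the submitters' processing notes. Aligner, strand setting and the authors' test were not given in the sources used here, and without a strand setting a read cannot be assigned to a gene or to its antisense partner. The authors deposited FPKM per transcript, per the file headers, with 0.0001 for 0. The deposited ratio (fold) was CIA over healthy FPKM to within 0.0001 of its value for all 16840 assembled transcripts, and the log2 column is the authors' logarithm of it. Both p-value and q-value columns were deposited by the authors. Annotated coordinates matched GENCODE M21, hence GRCm38.

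From these values log2((CIA + 0.1)/(healthy + 0.1)) was computed where 1 of the libraries had 0.5 FPKM or more, and FPKM was summed over members of the same locus. A size rule of 2-fold replaced a test. The depth is unknown, and no interval can be given. Transcript ends were windows of 100 bases set against GENCODE exons, and gene pairs were aligned with blastn 2.17.0. A small RNA family required 95% identity over 90% of Rnu1a1, Rnu2-10, Rnu3b2 or Rn7s2. MSTRG.6575.3, with a U1 and a U3 end, was summed under U1. Named transcripts were all members of 100 FPKM or more and, of the rest, the 10 of highest and 10 of lowest ratio (1 FPKM or more somewhere, neither value at the floor), the 10 most abundant, the 5 most abundant listed at 0 in either library alone, and the 3 nearest either side of the split. Members of the gene families and groups, and MSTRG.5431.1, were named after their values were seen, and equal gap lengths were counted after they were noticed. The members and lists were chosen with earlier results of these data known. The alternatives were other pseudocounts, filters, centring, size rules and splits. Before use, the size rule was run on simulated data with planted changes larger than the rule and an assumed spread. That run gives no error rate for these 2 libraries. Python 3.11.15, numpy 2.4.6, pandas 2.3.3 and matplotlib 3.10.9 were used.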

Additional observations from a re-analysis of the deposited data

How the results depend on the processing

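No paired analysis was possible because CIA and healthy had 1 library each. With 1 FPKM added in place of 0.1, 35 members under 100 FPKM and 24 of their loci were higher by 2-fold or more in CIA. Centred on the median of assembled transcripts, 58 of these members were lower, and centred on that of annotated transcripts 63 were lower, as were 45 loci. Under a 4-fold rule 22 of these members were higher and 19 lower, and 16 loci were higher and 12 lower. With the chromosome 6 transcripts kept, 2 abundant loci were higher. The log2 ratio of the U1 sum was -1.09 centred on the annotated median and -1.05 centred on the assembled median, which puts it past 2-fold. Centring and the sums by length or without the most abundant transcript were chosen for the family sums after seeing the data. The cause of these shifts was not tested, except that a stricter rule must call fewer. Many of the 60 named members were chosen for an extreme ratio or a listed 0, so they could hardly cross 2-fold. Their stability therefore says little about the other members. Under the alternatives run on the 60 named members, 228 of 240 values kept their direction and their side of 2-fold, and 10 passed 2-fold only under the alternative. The other two belong to MSTRG.32593.1, whose log2 ratio of 0.15 became -0.11 centred on the assembled median and -0.15 centred on the annotated median. The median log2 ratio of members under 100 FPKM, 0.28, became -0.02 centred on the annotated median. Without MSTRG.8166.3 the U1 sum was at -0.04. The unknown depth sets no limit that could be computed for values near 0.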
